A study of Mus musculus with 20 samples.

Results

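The 30 genes of glycolysis and the response to low oxygen were taken as a fixed list, and all 30 were present in both scRNA-seq tables of the series, among 15855 genes measured in cultured macrophages and 15333 measured in tumor cells. Of these, 16 belong to glycolysis itself (the glucose transporter Slc2a1, the lactate exporter Slc16a3 and 14 enzymes) and 14 to the switch away from mitochondrial pyruvate use, to oxygen sensing or to the targets induced when oxygen is low. The cultured cells were B-MF, macrophages grown from bone marrow (BM) B cells, and Mo-MF, macrophages grown from monocytes, both from naïve young female mice and both kept for a week in medium conditioned by the mouse breast cancer line 4T1.2, with 2 libraries of each. The tumor cells were sorted as macrophages from 4T1.2 tumors, of 4 mice by the account of the study, and formed 4 libraries. These are here called tumor libraries 2 to 5 after the names in the deposited table, which the labels do not tie to single mice. A further 12 ATAC-seq libraries came from cells of naïve mice described as B-cell precursors, 3 for each pairing of tissue (BM or spleen) with presence or absence of the receptor (CSF1R+ or CSF1R-). The methods of the study describe these cells as B-cell precursors, whereas the sample labels give their cell type as macrophage, so the cell identity behind the promoter values rests on the methods.

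Glycolysis turns glucose into pyruvate in the cytosol and yields ATP without oxygen. When oxygen falls, the prolyl hydroxylases Egln1 and Egln3 no longer mark Hif1a for destruction, and the stabilised factor binds sites with the core ACGTG and raises glucose uptake, most glycolytic enzymes and lactate export, while Pdk1 inhibits pyruvate dehydrogenase and so limits the conversion of pyruvate to acetyl-CoA. Myeloid cells lean on this program in inflamed and poorly perfused tissue, and neutrophils, which have few mitochondria, depend on it even when oxygen is present.

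Values are mean corrected counts per cell: the deposited natural log of 1 plus the SCTransform-corrected count, converted back and averaged over the cells of a library. In the tumor, neutrophil-like cells were those with a summed S100a8 and S100a9 corrected count of at least 300, and Csf1r-positive cells those with at least 1 corrected count of Csf1r, the CSF1 receptor of macrophages, and a sum under 300. Tumor libraries 2 to 5 held 1110, 1285, 1086 and 1549 neutrophil-like cells and 1541, 581, 836 and 853 Csf1r-positive cells, and between 452 and 598 cells in neither class. The 12 neutrophil markers summed to 1212 to 1380 corrected counts per neutrophil-like cell and to 31.3 to 59.0 per Csf1r-positive cell, and the 11 macrophage markers to 10.3 to 15.6 and 40.9 to 66.1 per cell. The lists hold the genes that set the classes. Without S100a8, S100a9 and Csf1r, the other 10 neutrophil markers summed to 73.45 to 109.1 in neutrophil-like and 4.45 to 7.89 in Csf1r-positive cells, and the other 10 macrophage markers to 9.82 to 15 and 38.1 to 63.3. Between 25.3% and 29.8% of the neutrophil-like tumor cells also had a Csf1r count, and 282 to 339 cells per library had an S100 sum of 200 to 450, near the boundary. Epithelial, T and NK cell, and erythroid markers were near 0 in both classes. The 2 libraries of a culture were far closer to each other than to the other culture (chi-square per gene 11.4 in B-MF and 8.76 in Mo-MF, 479 to 498 across), and any 2 libraries of a table shared 0 to 14 cell barcodes.

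Promoter accessibility was read from the ATAC-seq libraries. RefSeq start sites in GRCm38.p6 were found for 28 members (Ero1l under its current name Ero1a), but not for Bnip3l and Ndrg1, and the window ran from 250 bases before to 50 after the start. For genes with several start sites a peak in any window counted, and the fold enrichment is the highest over those windows. A deposited peak was found in this way in all 12 libraries for 26 of 28 members. The share was 35% of all 27025 genes with a start site and 86.5% of the 7051 of them that were tested in the scRNA-seq comparisons. The share among the members (26 of 28) is thus near that of other expressed genes. The fold enrichment of those 26 lay between 7.95 for Mxi1 and 29.7 for Pgk1 in the lowest and highest library. No member had a peak in all 3 CSF1R+ and none of the 3 CSF1R- libraries of a tissue, or the reverse, against 0.115% and 0.0259% of all genes in BM and 0.074% and 0.0111% in the spleen. The members without a peak in all 12 libraries were Ddit4 and Slc16a3. Ddit4, an inhibitor of mTORC1 signaling, had no peak in this window in any library but a peak within 1000 bases of the start in all 12. At Slc16a3 the fold enrichment was 7.88, 7.90 and 7.62 in BM CSF1R+ cells and 7.47, 7.08 and 9.10 in BM CSF1R- cells. In the spleen it was 3.94 and 4.75 in 2 CSF1R+ libraries and 4.45 in 1 CSF1R- library, and the other 3 had no peak there, so every BM value was above every spleen value, which held for 6.01% of the 7051 tested genes. No other member separated this way. In 11 of 28 members every spleen value lay above every BM value, against 21.9% of the tested genes, among them Pfkfb3 (10.7 to 12.2 in BM and 15.8 to 19.1 in the spleen), Pkm (12.2 to 13.8 and 18.6 to 22.2), Hk1 (12.33 to 15.02 and 18.4 to 21.3) and Mxi1 (7.95 to 9.36 and 12.8 to 15.4). Pfkfb3, Pkm and Hk1 have 2 windows each and Mxi1 has 3, so their BM and spleen values may come from different start sites. The spleen lists were also shorter, with 43407 to 50392 peaks against 65832 to 76530 in BM, and the part of this in the results was not tested.

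The core ACGTG, searched on both strands, was found in the window of 21 of 28 members (75%), against 31% of the tested genes and 21.8% of all genes. At least 2 separate sites were present in 8 members, or 28.6%, against 5.53% and 3.09%. For genes with several windows the one with the most sites was counted. Gpi1, Pfkl, Pfkp, Tpi1, Eno1, Pdk1 and Kdm3a held no ACGTG, the only form of the core that was searched. Of these Pfkp was also called in both comparisons below. A CACGTG, the E-box bound by Myc and other factors, reads as the core on both strands and was counted as 1 site. The 6 windows printed here all hold a site. They are those of Slc16a3, Pfkfb3, Ero1l and Bnip3, which were called in both comparisons below with large differences. The others are Ldha, which held 3 sites, the most of any member, and Hif1a, among those with 2. Each runs 5′ to 3′ along the gene, and capitals mark the core or its reverse complement CACGT, alone or merged into CACGTG.
Slc16a3, chr11:120948817-120949116, plus strand: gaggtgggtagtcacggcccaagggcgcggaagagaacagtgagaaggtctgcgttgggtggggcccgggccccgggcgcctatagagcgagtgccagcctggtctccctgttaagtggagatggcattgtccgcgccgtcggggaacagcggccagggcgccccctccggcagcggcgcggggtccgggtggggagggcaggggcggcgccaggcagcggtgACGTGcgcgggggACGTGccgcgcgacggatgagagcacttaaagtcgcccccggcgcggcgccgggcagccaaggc
Pfkfb3, chr2:11502041-11502340, minus strand: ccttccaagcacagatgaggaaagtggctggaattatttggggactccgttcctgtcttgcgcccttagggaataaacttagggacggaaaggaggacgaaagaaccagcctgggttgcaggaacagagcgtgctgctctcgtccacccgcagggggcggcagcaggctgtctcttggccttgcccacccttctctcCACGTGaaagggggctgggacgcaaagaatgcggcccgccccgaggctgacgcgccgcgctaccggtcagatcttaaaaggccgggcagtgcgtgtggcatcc
Ero1l, chr14:45318523-45318822, minus strand: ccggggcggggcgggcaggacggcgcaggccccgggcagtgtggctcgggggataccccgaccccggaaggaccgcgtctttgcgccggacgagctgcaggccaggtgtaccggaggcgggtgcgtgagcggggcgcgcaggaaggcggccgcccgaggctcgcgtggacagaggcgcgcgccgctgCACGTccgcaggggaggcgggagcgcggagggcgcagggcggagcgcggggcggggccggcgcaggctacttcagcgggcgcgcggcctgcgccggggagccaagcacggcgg
Bnip3, chr7:138909457-138909756, minus strand: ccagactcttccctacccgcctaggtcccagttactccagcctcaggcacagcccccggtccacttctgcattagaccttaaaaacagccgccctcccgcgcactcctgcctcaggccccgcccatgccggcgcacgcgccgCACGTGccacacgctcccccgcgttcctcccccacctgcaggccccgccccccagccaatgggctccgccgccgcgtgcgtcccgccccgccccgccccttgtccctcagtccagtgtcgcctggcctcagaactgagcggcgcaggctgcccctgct
Ldha, chr7:46845554-46845853, plus strand: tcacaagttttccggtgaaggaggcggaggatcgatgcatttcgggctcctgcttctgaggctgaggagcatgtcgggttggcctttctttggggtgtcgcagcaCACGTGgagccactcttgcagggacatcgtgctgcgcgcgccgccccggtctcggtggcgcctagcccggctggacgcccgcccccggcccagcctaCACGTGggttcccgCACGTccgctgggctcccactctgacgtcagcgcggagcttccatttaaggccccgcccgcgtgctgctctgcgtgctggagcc
Hif1a, chr12:73907617-73907916, plus strand: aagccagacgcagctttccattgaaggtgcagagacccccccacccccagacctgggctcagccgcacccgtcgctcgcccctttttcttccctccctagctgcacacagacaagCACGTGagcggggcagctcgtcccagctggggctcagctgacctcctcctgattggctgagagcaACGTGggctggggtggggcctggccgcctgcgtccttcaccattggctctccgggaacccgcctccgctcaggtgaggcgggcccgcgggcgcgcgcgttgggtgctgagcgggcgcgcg
In Slc16a3 both sites began within 27 bases before the start, and in Ldha the sites began 145, 48 and 34 bases before it. Pfkfb3 and Bnip3 held a single CACGTG each, and Ero1l a single core without it. These matches describe letters in the window and not binding.

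In the cultures, most of the tested members had lower levels in B-MF. Of 28 members with a mean of at least 0.1, 17 were lower and Gpi1 was higher in B-MF (limma with Benjamini-Hochberg adjustment over all 8633 genes tested, adjusted p of at most 0.05), and 10 did not pass, among them Gapdh, Ldha, Eno1, Pdk1 and Hif1a. Among all genes 16.9% were lower and 22.6% higher. The median log2 difference of B-MF minus Mo-MF was -0.24 over the members and 0.03 over all genes. For 23 of the 30 members both B-MF values lay under both Mo-MF values, and for 3 both lay above, against 29.6% and 40% of the genes tested. Of the 28 tested members, 4 differed by more than 0.5 on the log2 scale, and Egln3, too low to be tested, also had a wide gap (the Mo-MF mean was 6.79 times that of B-MF). The cultures also differed in the median share of mitochondrial counts per cell, which was 6.88% and 7.07% for B-MF against 4.54% and 4.68% for Mo-MF, and in the share of cycling cells, at 13.6% and 12.5% against 8.30% and 8.76%. Without cycling cells 18 members were lower and 1 higher, against 17.5% and 21.4% of all genes. Without cells over 15% mitochondrial counts 17 and 1 were, against 15.5% and 22.2%.

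**Figure D1:**
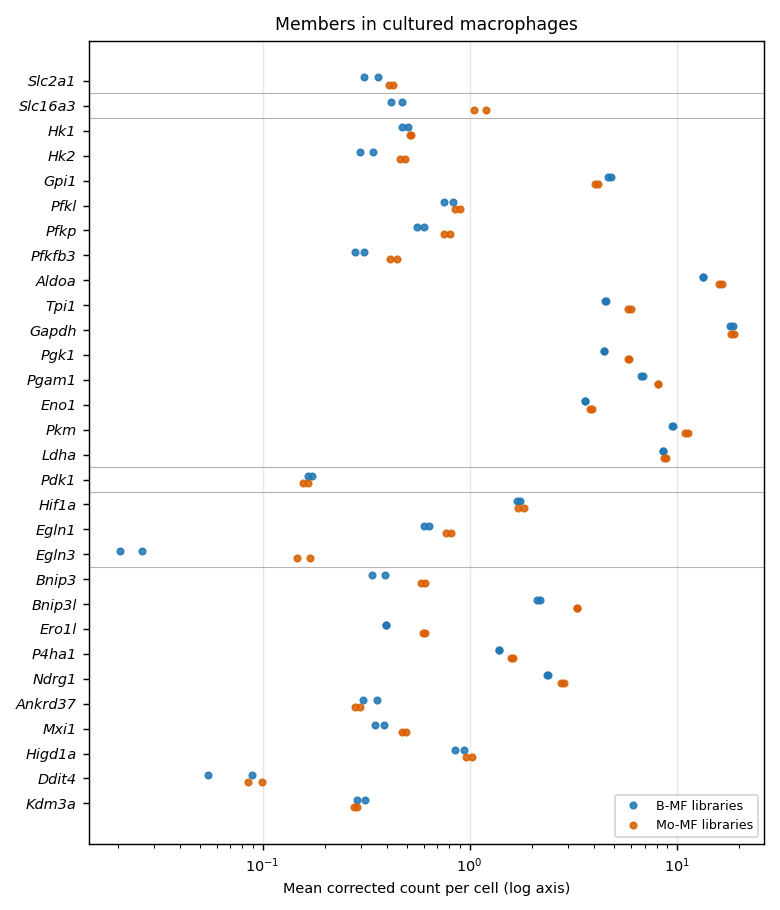
Mean corrected count per cell of each member (log axis) in the 2 B-MF and 2 Mo-MF libraries, each point 1 library; grey lines separate the roles. Slc16a3, Egln3, Bnip3, Bnip3l and Ero1l are the members with the widest gaps, with B-MF below Mo-MF in each.

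Of the tested members Slc16a3 had the largest difference. Slc16a3, which carries lactate out of the cell, was 0.47 and 0.42 in B-MF, against 1.20 and 1.05 in Mo-MF. The groups did not overlap, and the Mo-MF mean was 2.53 times the B-MF mean (log2 difference -1.17, SE 0.0765, adjusted p = 1.04e-05). Slc2a1, the transporter that brings glucose in, was 0.36 and 0.31 against 0.43 and 0.41, also without overlap (log2 difference -0.25, adjusted p = 0.019).

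Of the 14 enzymes, 8 were lower in B-MF, Gpi1 was higher, and Hk1, Pfkl, Gapdh, Eno1 and Ldha did not pass. At the steps that commit glucose to the pathway some enzymes were lower, while Hk1 and Pfkl, of the same steps, did not pass. Hexokinase Hk2 was 0.34 and 0.30 in B-MF against 0.49 and 0.46 (log2 difference -0.46). The phosphofructokinase subunit Pfkp was 0.60 and 0.56 against 0.80 and 0.75 (-0.36), and Pfkfb3, which makes the activator of phosphofructokinase, was 0.31 and 0.28 against 0.45 and 0.41 (-0.43). The groups did not overlap for Hk2, Pfkp and Pfkfb3. Downstream, the aldolase Aldoa was 13.34 and 13.37 in B-MF against 16.53 and 16.03 (-0.28). Tpi1 and Pgk1 differed by -0.38 each, Pgam1 by -0.26 and the pyruvate kinase Pkm by -0.23. The adjusted p of the 8 lower enzymes lay between 0.000519 and 0.00832. Gpi1, the second enzyme of the pathway, went the other way, at 4.83 and 4.65 in B-MF against 4.17 and 4.06 (log2 difference 0.20, adjusted p = 0.0167). Ldha, which makes lactate, was 8.59 and 8.61 in B-MF against 8.89 and 8.69 (adjusted p = 0.667), so the lactate exporter and the lactate-forming enzyme did not show the same gap.

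Among the oxygen-response members 7 of 12 tested were lower in B-MF and none was higher. Bnip3 and Bnip3l, which target mitochondria for autophagy, had the largest differences among those tested. Bnip3 was 0.39 and 0.34 in B-MF against 0.61 and 0.59 (log2 difference -0.59, SE 0.0659, adjusted p = 0.000232). Bnip3l was 2.13 and 2.20 against 3.32 and 3.29 (-0.59, SE 0.0502, adjusted p = 4.66e-05). Ero1l, the oxidase that drives disulfide bonds in the ER, was 0.395 and 0.394 against 0.61 and 0.59 (-0.51, SE 0.0498, adjusted p = 0.000117). In all 3 genes the B-MF libraries lay below the Mo-MF libraries by more than the spread within either. The collagen prolyl hydroxylase P4ha1 was 1.395 and 1.384 against 1.62 and 1.58 (-0.19, adjusted p = 0.0165), and differences of -0.23 to -0.31 were found for Ndrg1, Egln1 and the Myc antagonist Mxi1. Hif1a itself was 1.75 and 1.69 in B-MF against 1.83 and 1.72 and did not pass (adjusted p = 0.553), and Pdk1, Ankrd37, Higd1a and Kdm3a did not pass either. Egln3 and Ddit4 were under the level needed for the test. Egln3 was 0.026 and 0.020 in B-MF against 0.17 and 0.15, and Ddit4 was 0.089 and 0.055 against 0.0999 and 0.0848, with overlap of the groups.

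The Mo-MF cultures also held neutrophil-like cells, 357 and 342 or 7.37% and 6.35% of their cells, where B-MF had 3 and 0. With these cells left out, 15 members were lower and 2 higher in B-MF, where 17% and 20.9% of all genes were. Slc2a1 and Pkm then no longer passed (log2 differences -0.08 and -0.11, adjusted p = 0.408 and 0.118), and Ankrd37, a hypoxia target of little-known function, became higher in B-MF (0.44, adjusted p = 0.00148). The gap of Slc16a3 shrank to -0.74 and that of Bnip3 to -0.33, and both still passed (adjusted p = 0.000161 and 0.00553). Bnip3l moved little, to -0.57. The gap of Egln3 also narrowed, with 0.078 and 0.080 in the Csf1r-positive cells of Mo-MF against 0.025 and 0.020 in those of B-MF. Many members had under 1 corrected count per cell, and with 2 libraries a side the spread is estimated mainly across all genes. Without Mo-MF replicate 1, the adjusted p of Slc2a1 was 0.101 and that of Pgam1 0.0537, and without either Mo-MF library Gpi1, Pkm, P4ha1 and Ndrg1 did not pass (0.111 and 0.212, 0.144 and 0.0604, 0.226 and 0.137, and 0.143 and 0.0547, without replicates 1 and 2 in turn).

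Within the Mo-MF cultures all 30 members were higher in the neutrophil-like than in the Csf1r-positive cells in both libraries, against 23.7% of 8384 genes. This difference was not tested. Egln3 was 1.33 and 1.14 in the neutrophil-like cells and 0.078 and 0.080 in the Csf1r-positive cells. Slc16a3 was 5.64 and 5.27 against 0.85 and 0.76, and Bnip3 was 2.23 and 2.09 against 0.483 and 0.482. These 3 genes, with Ankrd37 at 1.28 and 1.17 against 0.218 and 0.220, stood apart most widely. Of these neutrophil-like culture cells 95.5% and 94.7% had a Csf1r count and the macrophage markers summed to 258 and 264 per cell, mostly through Apoe. Macrophage RNA from other cells in the droplet, free or in doublets, cannot be told apart here from transcripts of the cell itself: the share of free RNA was not estimated.

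In the tumor more members were higher than lower in neutrophil-like against Csf1r-positive cells, while most genes were lower, and the margin depended on the S100 threshold. With the library as a block, 17 members were higher, 7 were lower and 6 did not pass (limma, Benjamini-Hochberg over 5923 genes, adjusted p of at most 0.05). Among all genes 17.5% were higher and 72.5% lower, and within all 4 libraries 18 members were higher and 7 lower, against 17.9% and 73%. The classes did not overlap for 13 higher and 4 lower members, against 14.4% and 69%. The median log2 difference was 0.25 over the members and -0.61 over all genes. An S100 threshold of 1000 in place of 300 was applied to both classes, so Csf1r-positive cells were then those with a sum under 1000. With it 13 members were higher and 11 lower, against 14.1% and 74.6% of all genes. The medians were 0.06 over the members and -0.68 over all genes. There P4ha1 (0.01), Egln3 (0.12) and Hif1a (0.11) no longer passed (adjusted p = 0.944, 0.194 and 0.146), Hk2 and Pgam1 were lower (-0.44 and -0.16, adjusted p = 5.97e-05 and 0.0357), and Pkm and Ankrd37 were newly lower (-0.19 and -0.65). Slc16a3 still differed by 1.48, while Slc2a1 (0.36), Ero1l, Pfkfb3, Kdm3a, Pfkp, Pfkl (0.28), Bnip3 and Bnip3l shrank to between 0.25 and 0.42, and Higd1a, Ldha and Aldoa to 0.21, 0.19 and 0.17, and all of them still passed. The lower values of Egln1, Pdk1 and Eno1 widened to -0.59, -0.43 and -0.33. Neutrophil-like cells had a median of 1362 to 1427 detected genes per cell and Csf1r-positive cells 2515 to 2556 at similar corrected counts per cell (7546 to 7571 and 8494 to 8544), and medians of 1.004% to 1.32% and 2.62% to 3.06% mitochondrial counts. Median-ratio scaling, which sets each library and class relative to its median gene, moved the median of all genes to 0.05. On that scale 28 members were higher and 1, Ndrg1, was lower, where 45.3% of all genes were higher and 41% lower. The signs of the differences given here therefore hold on the deposited scale. Those of Pgk1, Eno1, Pkm, Gpi1, Pdk1, Egln1, Ankrd37 and Ddit4 turned from lower to higher on the other.

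**Figure D2:**
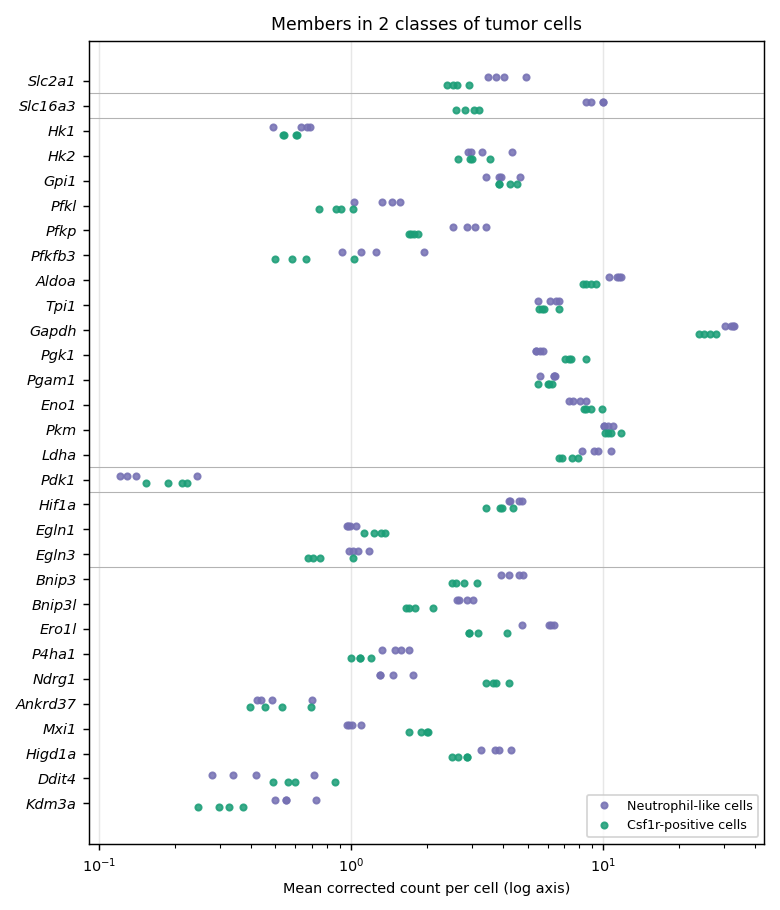
Mean corrected count per cell of each member (log axis) in neutrophil-like and Csf1r-positive cells, each point 1 of 4 tumor libraries. Slc16a3 lies well above the Csf1r-positive points in neutrophil-like cells, and Ndrg1 and Mxi1 well below, with no overlap between the classes.

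Slc16a3 again had the largest difference. It was 9.96, 8.90, 8.5 and 9.98 in the neutrophil-like cells of libraries 2 to 5 and 2.59, 3.08, 2.82 and 3.20 in the Csf1r-positive cells. All neutrophil-like values lay above all others, and the means differed 3.20-fold (log2 difference 1.64, SE 0.0691, adjusted p = 5.59e-10). Slc2a1 was 3.75, 4.91, 3.49 and 4.04 against 2.62, 2.94, 2.39 and 2.52, again without overlap (0.60, SE 0.0582, adjusted p = 8.88e-07).

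Of the 14 enzymes, 7 were higher and 2 lower in neutrophil-like cells. All 3 members around the phosphofructokinase step were higher, on both scales. Pfkp was 3.43, 3.09, 2.53 and 2.88 in neutrophil-like and 1.84, 1.78, 1.69 and 1.73 in Csf1r-positive cells (0.72, adjusted p = 2.57e-07). Pfkl was 1.56, 1.45, 1.03 and 1.32 against 1.01, 0.91, 0.74 and 0.87 (0.54, adjusted p = 1.66e-06). Pfkfb3 was 1.09, 1.95, 0.92 and 1.26 against 0.58, 1.02, 0.50 and 0.66 (0.82, adjusted p = 1.98e-08). The Pfkfb3 classes overlapped across libraries, since library 3 was high in both, but the neutrophil-like value was the higher one within every library. Aldoa was 11.31, 11.57, 10.51 and 11.72 against 9.32, 8.90, 8.55 and 8.32 (0.36, adjusted p = 7.9e-05), without overlap. Hk2 was 2.91, 4.32, 2.98 and 3.30 against 2.65, 3.54, 2.94 and 3.02 (0.14, adjusted p = 0.0446), with overlap and the highest values again in library 3. The Hk2 call was lost without library 2, 3 or 5 (adjusted p = 0.0783, 0.211 and 0.0947), without the block (0.314), without cycling cells (0.221) and at a pseudocount of 0.01 (0.094). Gapdh and Ldha were higher by 0.31 and 0.37. Pgk1 was lower on the deposited scale, at 5.61, 5.42, 5.39 and 5.75 against 8.51, 7.32, 7.05 and 7.43 (-0.44, adjusted p = 1.49e-05), as was Eno1 (-0.18, adjusted p = 0.0107), and each was higher by 0.40 and 0.67 relative to the median gene. Hk1, Gpi1, Tpi1, Pgam1 and Pkm did not pass, with differences of -0.06 to 0.09.

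Of the 10 hypoxia targets, 6 were higher and 3 lower in neutrophil-like cells. Ero1l was 6.08, 6.17, 4.76 and 6.34 in neutrophil-like and 2.92, 4.14, 2.93 and 3.17 in Csf1r-positive cells (0.81, SE 0.0783, adjusted p = 8.58e-07). Bnip3 was 4.23, 4.81, 3.91 and 4.60 against 2.79, 3.15, 2.60 and 2.50 (0.65, SE 0.0622, adjusted p = 8.16e-07), and Bnip3l was 2.67, 3.03, 2.62 and 2.88 against 1.64, 2.10, 1.79 and 1.69 (0.61, SE 0.0587, adjusted p = 9.01e-07). None of the 3 overlapped between the classes. Kdm3a, a histone demethylase induced by hypoxia, was 0.55, 0.73, 0.50 and 0.55 against 0.25, 0.37, 0.33 and 0.30 (0.73, adjusted p = 7.88e-07). P4ha1 was 1.58, 1.69, 1.32 and 1.49 against 1.08, 1.20, 0.999 and 1.09 (0.44, adjusted p = 7.14e-06), also without overlap. The mitochondrial protein Higd1a was higher by 0.45, Egln3 by 0.40 and Hif1a by 0.19.

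A smaller set was lower in neutrophil-like cells. Ndrg1, a stress-induced gene of differentiating cells, was 1.30, 1.76, 1.30 and 1.46 in neutrophil-like and 4.22, 3.64, 3.41 and 3.75 in Csf1r-positive cells. The classes were far apart, with a 2.58-fold higher mean in Csf1r-positive cells (log2 difference -1.32, SE 0.0831, adjusted p = 1.71e-08), and Ndrg1 stayed lower relative to the median gene (-0.49, adjusted p = 0.000112). Mxi1 was 0.98, 1.10, 1.005 and 0.96 against 2.01, 1.88, 1.69 and 1.99 (-0.84, adjusted p = 1.06e-07), which became -0.04 relative to the median gene and no longer passed. Egln1, Pdk1 and Ddit4 were lower by 0.31, 0.20 and 0.47 on the deposited scale only. Ankrd37 did not pass (adjusted p = 0.828). With S100-high cells restricted to those without a Csf1r count, an alternative chosen after seeing the data, 17 members were higher and 5 lower, where 17.4% and 71.8% of all genes were. Eno1 and Pdk1 no longer passed (adjusted p = 0.0732 and 0.0834). Both also missed the threshold without library 2 (0.0519 and 0.25), and Pdk1 without library 4 (0.188).

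Of the 17 members that were lower in B-MF than Mo-MF, 10 were higher and 4 lower in neutrophil-like than in Csf1r-positive tumor cells, and 3 did not pass there. Over all 30 members 17 were higher and 7 lower there. The same joint count over all genes was not made, and the 2 comparisons set different cells against each other. The members with opposite calls included Slc16a3, Bnip3, Bnip3l, Ero1l, Pfkp and Pfkfb3, while Pgk1, Egln1, Ndrg1 and Mxi1 were lower in both. Gpi1, the member that was higher in B-MF, did not pass in the tumor.

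**Figure D3:**
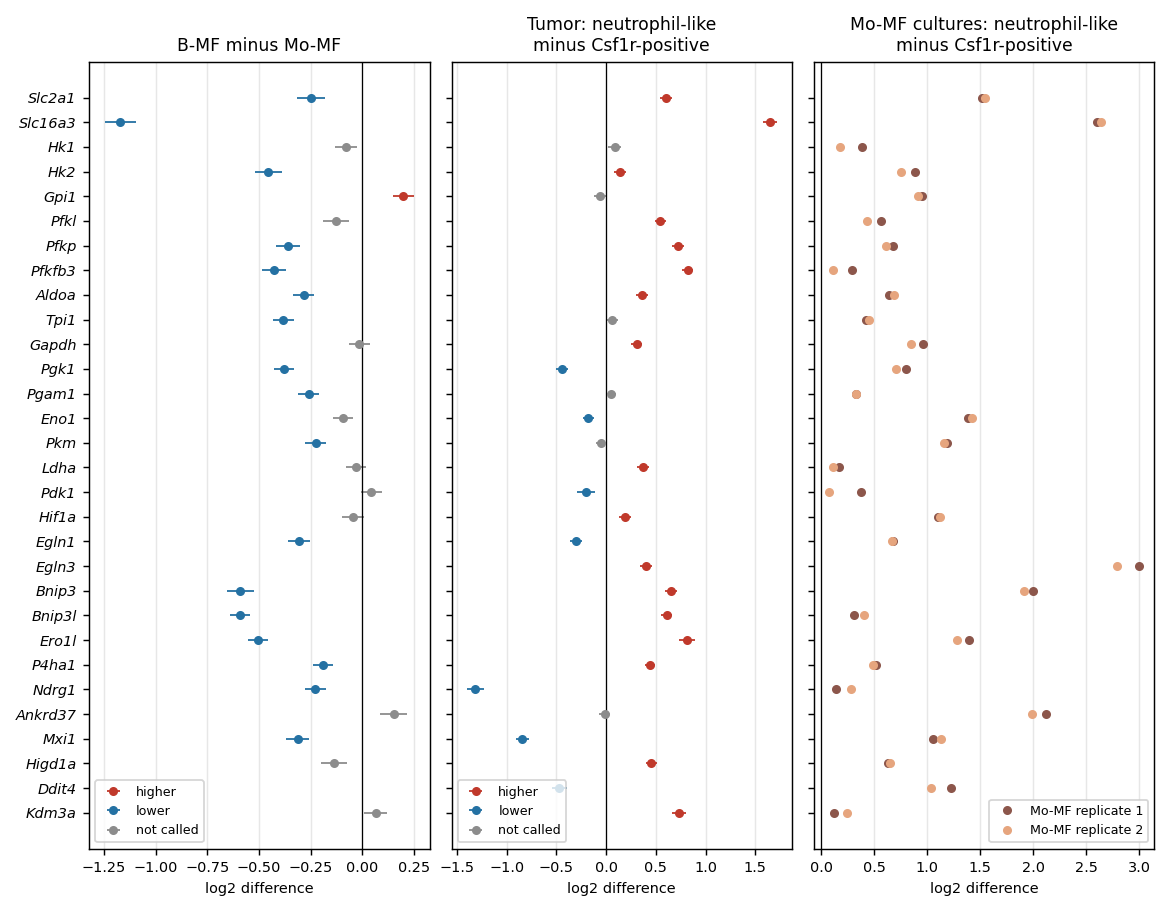
Log2 difference of each member in cultures (B-MF minus Mo-MF) and in tumor (neutrophil-like minus Csf1r-positive), with bars for the SE and colors for the limma call, and within each Mo-MF library in the right panel, where points are libraries without a test. Slc16a3 reaches -1.17 on the left and 1.64 in the middle, and every point on the right lies above 0.

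Other genes of the pathways were counted in the same way. Among 21 further glycolysis genes, 14 could be tested in the cultures and 2 were higher and 7 lower in B-MF, where 22.6% and 16.9% of all genes were, with medians of -0.22 for the list and 0.03 for all genes. Of 36 further hypoxia genes 26 were tested and 3 were higher and 7 lower, and of 11 genes of the oxygen-sensing machinery 9 were tested, with 1 called each way. The medians of these lists were -0.06 and 0.05. The largest called differences were those of the lipid droplet protein Plin2 (-1.66), the lactate dehydrogenase subunit Ldhb (-1.34), the high-affinity glucose transporter Slc2a3 (-1.19), the repressor Bhlhe40 (-1.16), the hexokinase Hk3 (-0.75), P4ha2 (0.70), Aldoc (0.56) and Eno2 (-0.47). These further lists were not recounted without the neutrophil-like cells of Mo-MF, of which B-MF had almost none.

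In the tumor, 10 of the further glycolysis genes could be tested, with 7 higher and 3 lower in neutrophil-like cells. Of 23 hypoxia genes tested 10 were higher and 8 lower, and of 7 genes of the machinery none was higher and 4 were lower. Among all genes 17.5% were higher and 72.5% lower, with a median of -0.61, and the medians of the 3 lists were 0.29, 0.11 and -0.30. The share of the machinery called lower (4 of 7) was thus not above that of all genes, and the difference was not tested. Slc2a3 had the largest difference, with means of 1.79 and 0.21 (log2 difference 2.66, adjusted p = 3.28e-10). The others were Fam162a (1.66), Vegfa, the angiogenic growth factor (-1.48, means 1.06 and 3.04), the ubiquitin ligase Siah2 (-1.32), the lipid droplet protein Hilpda (1.11), Selenbp1 (-1.05), the collagen-modifying Plod1 (-1.03) and the ubiquitin ligase subunit Rbx1 (-0.99). Vegfa and Hilpda, both textbook targets of hypoxia, thus lay on opposite sides.

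A score per library, the mean over members of log2 of the level plus 0.1, put the cultures and the tumor side by side, although the 2 tables were normalised separately and no test was made between them. Over all cells and members it was 0.36 and 0.29 in B-MF, 0.62 and 0.57 in Mo-MF, and 1.46, 1.67, 1.34 and 1.46 in tumor libraries 2 to 5. The members made up 0.467% and 0.469% of corrected counts in B-MF, 0.540% and 0.527% in Mo-MF and 1.59% to 1.92% in the tumor. Csf1r-positive cells alone gave 0.35 and 0.28 in B-MF, 0.50 and 0.47 in Mo-MF and 1.19 to 1.41 in the tumor, which is the same order. Neutrophil-like cells of the Mo-MF cultures scored 1.45 and 1.37, and those of the tumor 1.36 to 1.66. By share of corrected counts these cells differed, with 0.990% and 0.966% in Mo-MF and 1.71% to 1.98% in the tumor. Their median corrected counts per cell were 16982 and 16538 in Mo-MF and 7546 to 7571 in the tumor. Cells in neither class scored highest in libraries 2, 3 and 4, at 1.63, 1.90 and 1.42. In that class of the tumor the 10 neutrophil markers other than S100a8 and S100a9 summed to 8.64 to 16.05 per cell. The 10 macrophage markers other than Csf1r summed to 15.9 to 33.6. It also held B-cell, dendritic cell and, in library 4, fibroblast markers (sums per cell of 0.97 to 8.94, 3.03 to 4.16 and 7.05). The part of any of these in its score was not tested.

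**Figure D4:**
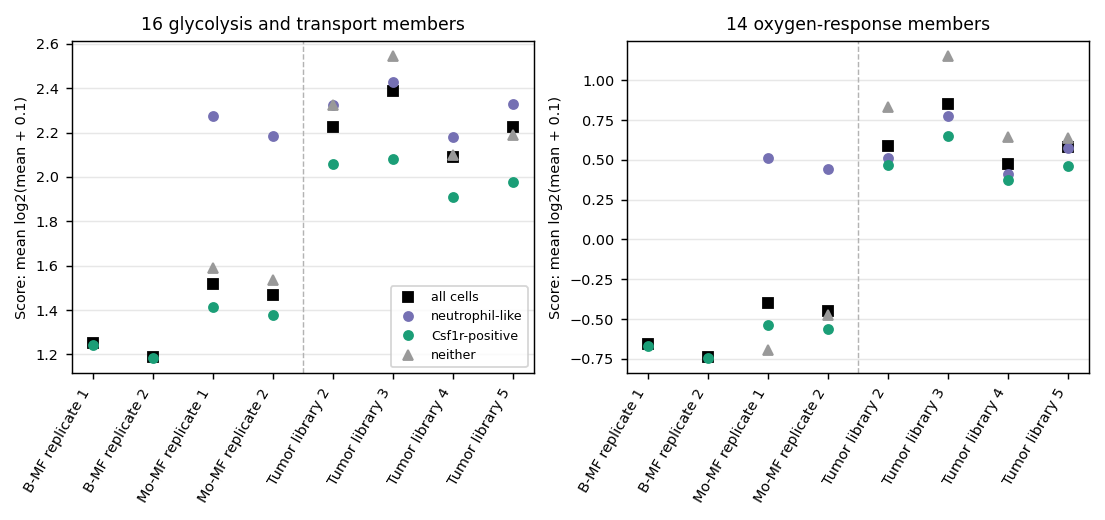
Score of the 16 glycolysis and the 14 oxygen-response members in each library, by class of cell, with B-MF and Mo-MF left and tumor right of the dashed line, which marks separately normalised tables; B-MF has too few neutrophil-like or unclassed cells to show. Within each class tumor library 3 has the highest score of the tumor libraries, and the Csf1r-positive cells of B-MF score below those of Mo-MF.

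The tumor libraries differed in level. In neutrophil-like cells 20 of the 30 members were highest in library 3 and 21 were lowest in library 4. In Csf1r-positive cells 14 were highest in library 3 and 12 in library 2, and 18 were lowest in library 4. The same shares over all genes were not counted, so a shift of a whole library cannot be told apart. Library 3 was also the one with the largest share of neutrophil-like cells, 55.4%, against 34.9% to 51.6% in the others, and the part of this in the levels over all cells was not tested.

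Co-variation of the members was described across the cells of each tumor library. For each cell a score was formed from 16 members (the oxygen-response genes, Slc2a1 and Slc16a3), leaving out the gene examined. In Csf1r-positive cells the correlation with that score was highest for Ero1l (Pearson r 0.74 to 0.76 over the 4 libraries), Bnip3 (0.72 to 0.79) and Slc2a1 (0.66 to 0.71). It was among the lowest for Pdk1 (0.14 to 0.21), Hif1a (0.19 to 0.25) and Kdm3a (0.21 to 0.27). The points are cells that share a library, so these values are a description. Hif1a is controlled mainly at the protein level, as background.

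**Figure D5:**
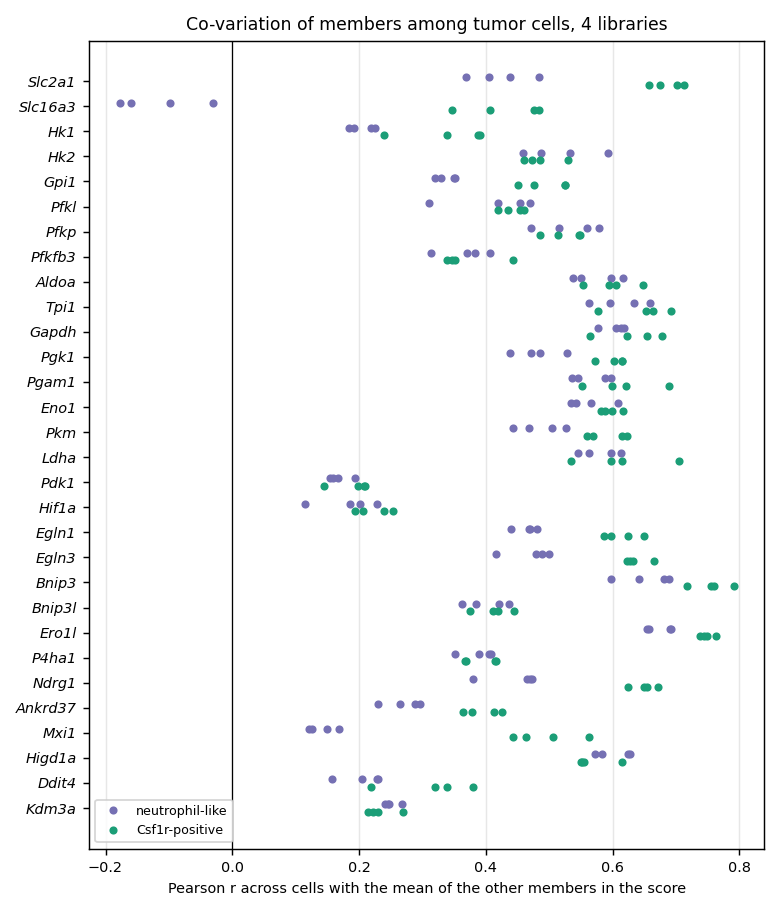
Pearson r across cells between each member and the mean of the other score members, each point 1 tumor library and class. Ero1l and Bnip3 lie furthest right, and Slc16a3 in neutrophil-like cells is the only member left of 0.

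The cells of each library and class were then ranked by the score, and the top 25% set against the bottom 25%. In Csf1r-positive cells Ero1l was 7.46 to 11.03 in the top and 0.20 to 0.32 in the bottom set. Bnip3 ran from 0.14 to 0.46 in the bottom set to 5.95 to 7.54 in the top set, and Egln3 from 0 to 0.036 to 1.88 to 2.60. For all 30 members the top set lay above the bottom set in the 4 libraries without overlap, against 17.7% of 7453 other genes. Corrected counts per cell were alike in both sets (medians of 8520 to 8586 and 8500 to 8575), and the top set had somewhat fewer detected genes (2417 to 2476 against 2592 to 2654). SCTransform itself corrects for depth, so like medians cannot show whether depth before correction was alike.

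In neutrophil-like cells 29 of 30 members showed the same separation, against 23.7% of 5138 other genes. The exception was Slc16a3. Its correlation with the other members was -0.18 to -0.03, and its level was 7.21 to 7.89 in the top set and 8.34 to 11.2 in the bottom set, where in Csf1r-positive cells it was 3.41 to 4.83 and 0.79 to 1.21. Slc16a3 had a count in 96.6% to 97.8% of neutrophil-like cells and in 73.3% to 78.9% of Csf1r-positive cells. The median correlation between pairs of score members was 0.22 to 0.29 in those of the tumor, 0.08 and 0.07 in those of Mo-MF and 0.04 in both B-MF libraries, where 15 and 14 of the 16 score members could be used. The cultures had lower counts of many members (Bnip3 0.33 to 0.48 per Csf1r-positive cell against 2.50 to 3.15 in the tumor) in a table normalised separately, and the difference between the sources was not tested. In neutrophil-like cells it was 0.13 and 0.10 in Mo-MF and 0.13 to 0.17 in the tumor, where 102 to 110 of 120 pairs were above 0. Pairs of other genes were not examined, so these medians and counts have no background beside them.

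The non-members most like the score, by their worst rank over the 4 tumor libraries, overlapped between the classes. In Csf1r-positive cells they were Hilpda (r 0.67 to 0.72), P4hb, Basp1, Bsg, Srgn, Tmem189, Adam8, Hmox1, Smox and Clec4d, with ranks of 14 or better among 7453 genes. In neutrophil-like cells they were Bsg (0.59 to 0.66), P4hb, Fam162a, Hilpda, Basp1, Rbpj, Mif, Hmox1, Impa2 and Tmem189, with ranks of 13 or better among 5138. Bsg encodes basigin, the chaperone of the lactate transporters, P4hb is a protein disulfide isomerase oxidised by Ero1l, and Hmox1 degrades heme. Hilpda was 16.4 to 23.1 in the top and 0.81 to 1.41 in the bottom set of Csf1r-positive cells, and 27.6 to 38.3 and 5.54 to 7.82 in neutrophil-like cells.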

How the data were processed

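The authors counted scRNA-seq reads with Cell Ranger, kept cells with at least 1000 detected genes, and ran SCTransform, and the deposited values are natural logs of corrected counts raised by 1. They were converted back to whole numbers within 0.01. No count model was fitted, depth before correction is unknown, and the spread between libraries gives the precision. Nothing states that libraries of a culture came from separate animals, so p-values may measure technical spread. Log2 of library means plus 0.1 was compared with limma 3.58.1 (lmFit, eBayes, two-sided, Benjamini-Hochberg) wherever a gene's mean reached 0.1, after testing on simulated data. S100a8, S100a9 and Csf1r defined the tumor classes and were not tested there. Doublets were not removed. For ATAC-seq, the authors trimmed reads with cutadapt, aligned them to mm10 with BWA and deposited MACS2 peaks per library with a fold enrichment, which is a ratio, and the −log10 of the q-value. Members and gene lists were chosen with earlier results of these data known. All 30 members are named, with values per library for called differences of at least 0.5 on the log2 scale or changed direction, up to 8 called pathway genes per comparison, the 10 most similar other genes and up to 6 promoters. Alternatives covered pseudocounts, filters, scaling, thresholds of classes, the replicate block, peak rules and each library left out. R 4.3.3 and Python 3.11.15 with pandas 2.3.3, scipy 1.17.1 and numpy 2.4.6 were used.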

Additional observations from a re-analysis of the deposited data

Results flagged for a closer look

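For 7 members the sign of neutrophil-like minus Csf1r-positive cells was positive in both Mo-MF libraries and negative in all 4 tumor libraries. All 30 members were positive in Mo-MF, so these are the 7 lower in every tumor library, where 73% of all genes were lower. The mean log2 difference in the cultures was 0.75 for Pgk1, 1.41 for Eno1, 1.17 for Pkm, 0.68 for Egln1, 0.21 for Ndrg1, 1.09 for Mxi1 and 1.13 for Ddit4, and in the tumor -0.44, -0.18, -0.05, -0.31, -1.32, -0.84 and -0.47 on the deposited scale, where Pkm did not pass the tumor test. With median-ratio scaling of the tumor classes Pgk1, Eno1, Pkm, Egln1 and Ddit4 were positive in the tumor (0.40, 0.67, 0.80, 0.48 and 0.24), while Ndrg1 was -0.49 and Mxi1, at -0.04, did not pass. The classes of the Mo-MF cultures were not rescaled, so these tumor values and the culture values are on unlike scales. The difference between the sources was not tested, and the 2 tables were normalised separately.

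In 6 of 90 groups of 4 tumor values, 1 library lay far from the other 3, which is near the roughly 1 in 20 groups that chance flags. The groups over all cells share cells with those of the classes. Library 4 was low for Pgam1 (5.59) and Ero1l (4.76) in neutrophil-like cells. Library 3 was high for Pdk1 in neutrophil-like cells (0.245) and for Gpi1 (4.87) and Egln3 (1.21) over all cells. Library 2 was high for Pgk1 over all cells (7.53).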

How the results depend on the processing

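The 17 members lower in B-MF were 12 to 21 with 1 library left out, and the 1 higher member was 0 to 3. Without either Mo-MF library no member was higher and without B-MF replicate 2 there were 3. Each of these fits leaves 1 library in a culture, and the calls over all genes shifted as well. The counts therefore do not describe the members alone. In these fits the median log2 difference was -0.275 to -0.214 over the members and -0.028 to 0.075 over all genes. The higher count was 2 with median-ratio scaling, with the replicate block, without neutrophil-like cells and in Csf1r-positive cells alone. Of all genes 27.2%, 25.9%, 20.9% and 20.8% were higher in those settings, in that order. The deviations of equally numbered B-MF and Mo-MF libraries correlated at 0.126, and nothing in the labels ties them. In the tumor, leaving out 1 library gave 16 to 17 higher and 5 to 7 lower members, against 16.5% to 17.5% and 71.1% to 72.2% of all genes. Median-ratio scaling gave 28 and 1, against 45.3% and 41%. An S100 threshold of 1000, which moved the bound of both classes, gave 13 and 11, against 14.1% and 74.6%. The member median fell from 0.25 to 0.06. Reversed log2 differences under median-ratio scaling were 0.78 for Gpi1, 0.40 for Pgk1, 0.67 for Eno1, 0.80 for Pkm, 0.34 for Pdk1, 0.48 for Egln1, 0.70 for Ankrd37 and 0.24 for Ddit4. At an S100 sum of at least 1000 they were -0.44 for Hk2 and -0.16 for Pgam1, and at a Csf1r count of at least 3 the value of Ankrd37 was 0.31. The scaling is by construction relative to the median gene; the cause of the other changes was not tested. The promoter count stayed at 26 or 27 under every alternative tried.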
